A study of Mus musculus with 2 samples.

Results

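The genes described here are 10 transcripts that the tumour suppressor p53 is known to switch on or that slow the cell cycle, taken from an array of 30259 gene names: Cdkn1a, Mdm2, Ccng1, Btg2, Trp53inp1, Gadd45a, Gadd45b, Bax, Phlda3 and Sesn1. A gene was included by its name in the array files, and the 10 names matched 12 probes on 21 spots. Liver RNA was measured on 2 one-colour Agilent arrays, 1 for wild-type mice and 1 for Pnpla8-/- mice, both of the C57BL/6N strain and with no treatment named in the labels. Pnpla8 encodes a phospholipase that releases fatty acids from membrane phospholipids, and by its title the series belongs to work on liver phosphatidylcholine breakdown as a source of choline for the methionine cycle. Each array held equal amounts of RNA pooled from the livers of 5 animals. The sample labels give an age of 6 weeks and the series design text 8 weeks. The labels do not say how the knockout allele was made or which sex was used. With 1 pool per genotype there was no replicate and no test: differences between animals, pools and arrays cannot be told apart from genotype, and having only 2 arrays limits how precise any ratio is. A gene is called higher or lower below by a fixed size, a ratio of at least 2-fold.

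p53 is a transcription factor that is held at a low level by the ubiquitin ligase Mdm2 and that accumulates after DNA damage and other stress. Its targets include the cyclin-dependent kinase inhibitor p21, encoded by Cdkn1a, which halts the cycle before DNA synthesis, as well as Mdm2 itself, which closes a feedback loop, and genes for apoptosis, DNA repair and antioxidant defence. Several of these genes are also switched on without p53, for example by glucocorticoids, FOXO factors, growth factor signals or inflammatory signals, and in the adult liver most hepatocytes are out of the cycle.

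The start-site sequences of the genes past 2-fold are given first, because they show which of these genes carry p53 letters close to a start. RefSeq promoter windows of build GRCm38.p6, from 250 bases before to 50 bases after a start, were found for 9 of the 10 genes, 11 windows in all, since Cdkn1a and Sesn1 have 2 each. The windows were searched on both strands for the p53 consensus half-site (a palindromic motif of 10 letters, so that each match lies on both strands). The other motifs searched were the cAMP response element TGACGTCA, its half-element TGACG, and FOXO, glucocorticoid receptor, AP-1, CArG, CHR, TATA and CCAAT motifs. The 250 bases before each start are printed 5′ to 3′ with p53 half-sites and TGACG, which begins the cAMP response element, in capitals on either strand. The upstream Cdkn1a window lies at chr17:29090729-29090978, plus strand, the downstream Cdkn1a window at chr17:29093519-29093768, plus strand, the Btg2 window at chr1:134079156-134079405, minus strand, and the Gadd45a window at chr6:67037408-67037657, minus strand.
Cdkn1a upstream start: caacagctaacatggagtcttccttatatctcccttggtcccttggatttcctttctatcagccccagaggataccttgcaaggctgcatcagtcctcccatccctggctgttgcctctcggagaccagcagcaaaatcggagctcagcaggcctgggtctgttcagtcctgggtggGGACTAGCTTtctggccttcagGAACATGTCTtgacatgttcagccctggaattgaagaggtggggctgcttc
Cdkn1a downstream start: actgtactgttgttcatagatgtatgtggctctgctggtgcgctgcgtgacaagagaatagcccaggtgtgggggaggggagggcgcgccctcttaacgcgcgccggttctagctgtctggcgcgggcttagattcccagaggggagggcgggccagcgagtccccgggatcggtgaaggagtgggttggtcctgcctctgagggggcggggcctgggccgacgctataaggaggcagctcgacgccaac
Btg2 start: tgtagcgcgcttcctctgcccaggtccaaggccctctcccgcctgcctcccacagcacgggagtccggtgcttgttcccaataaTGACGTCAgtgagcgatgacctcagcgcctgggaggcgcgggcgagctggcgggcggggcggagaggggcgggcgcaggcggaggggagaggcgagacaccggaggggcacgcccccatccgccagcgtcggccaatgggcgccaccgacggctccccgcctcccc
Gadd45a start: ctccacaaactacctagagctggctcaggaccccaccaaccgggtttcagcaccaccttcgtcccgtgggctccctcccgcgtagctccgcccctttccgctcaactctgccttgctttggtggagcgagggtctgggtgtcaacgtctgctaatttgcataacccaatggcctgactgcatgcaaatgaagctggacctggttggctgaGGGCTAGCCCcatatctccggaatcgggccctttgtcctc

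The upstream Cdkn1a window held 2 half-sites, which begin 73 and 51 bases before the start. The second of them is followed directly by another half-site with 1 letter off, and together they form the 20-base stretch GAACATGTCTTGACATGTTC. Such a pair of abutting half-sites, with at most 1 letter off, was present in 29 of 32851 windows (0.0883%), and among the 11 windows of these genes in 2, that of Ccng1 being the other. The downstream Cdkn1a start lies 2790 bases further on, and its window held no half-site. The Gadd45a window held 1 half-site, 40 bases before the start. The Btg2 window held no half-site but a complete cAMP response element, TGACGTCA, 166 bases before the start, a motif present in 1.79% of all windows and in none of the other windows of these genes. The FOXO site was found in 2 of the 11 windows, in Mdm2 and Sesn1, and in 3.65% of all windows. Glucocorticoid receptor half-sites (19% of all windows), AP-1 sites (7.81%) and CArG boxes (1.63%) were found in 0 of the 11. TGACG was found in 3 (20.8%), CHR in 1 (17.9%), TATA in 1 (13.6%) and CCAAT in 7 (37.4%). In all, 6 of the 11 windows held a p53 half-site, in Bax, Ccng1, Cdkn1a, Gadd45a, Mdm2 and Sesn1, against 8.36% of all windows. These genes were listed because they are known p53 targets, so that share is a description of the list and not a result. A match of letters is not a measured binding site, and many p53 sites lie outside windows of this length.

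All 10 genes had at least 1 probe well above background on both arrays. Their ratios ran from a log2 value of -1.38 to 1.73, where a positive value means a higher signal in the knockout pool. Cdkn1a and Btg2 were at least 2-fold higher, Gadd45a was at least 2-fold lower, and 7 genes were within 2-fold. Of 19394 genes measured on both arrays, 1.30% passed 2-fold upward and 1.85% downward, 3.16% in all. The median log2 ratio of the 10 genes was 0.05 and that of all measured genes 0.04. Of the 10, 5 had a ratio above 0 and 5 below, where 56.7% of all measured genes lay above 0 and 43.3% below. At 1.5-fold, which 10.4% of all measured genes passed in either direction, Trp53inp1 joined the higher genes, for 3 higher and 1 lower.

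Among the 43020 spots that are not controls, 70.1% (wild type) and 65.6% (knockout) clearly exceeded background, and none was saturated. Signals were scaled to each array's 75th percentile, a signal of 1207 for wild type and 1018 for knockout. The scaling matters for small ratios: the median log2 ratio of all measured genes was -0.21 without scaling and -0.12 when scaled to spike-in controls. A positive ratio smaller than the distance from 0.04 to -0.21 therefore turns negative without scaling, and no direction is drawn from such values below. Where 1 gene had several probes, their log2 ratios had a median SD of 0.10, which can hold differences between transcripts as well as technical spread. Between spots of 1 probe, for the 398 probes spotted 5 times or more, the median SD was 0.06, which is technical spread. Pnpla8 itself read 144 in the wild-type pool and 4.45 in the knockout pool, where it was not well above background, at least 6.81-fold lower. The sources used here do not state which part of the gene was removed, so it is unknown whether this probe checks the labels. Hepatocyte markers Alb, Ttr, Apoa1, Cps1, Serpina1a, Tat and Hnf4a were well above background in both pools.

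**Figure D1:**
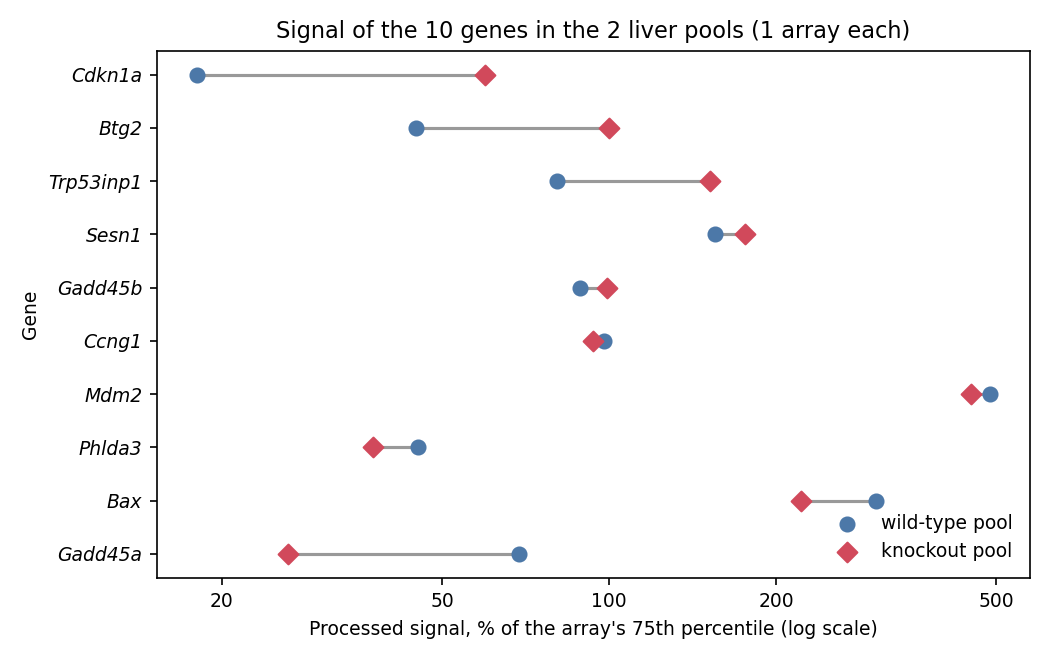
Processed signal of the 10 genes in the wild-type pool (blue circles) and the knockout pool (red diamonds), as a percentage of each array's 75th percentile on a log axis, 1 array per pool. Cdkn1a, Btg2 and Trp53inp1 sit to the right in the knockout, Gadd45a and Bax to the left, and levels should be compared within a gene only, since probes differ in brightness.

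Cdkn1a, the gene for p21, was the highest of the 10 in the knockout pool. Its probe A_51_P363947, designed on transcript NM_007669 and placed by the array file at chr17:29237377-29237436 in build mm9, was spotted 10 times. The spots read a mean signal of 218 ± 8.63 (SD, 10 spots of 1 array) in the wild type, between 207 and 234, and 608 ± 20.2 in the knockout, between 586 and 656. The 2 sets of spots did not overlap, but they share 1 pool per genotype and measure the array's own noise. After scaling, Cdkn1a stood at 18.0% of the 75th percentile in wild-type liver and 59.6% in knockout liver, a ratio of 3.31-fold with spot ratios from 1.66 to 1.80 on the log2 scale. That ratio ranked 45 from the highest among the 19394 measured genes.

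**Figure D2:**
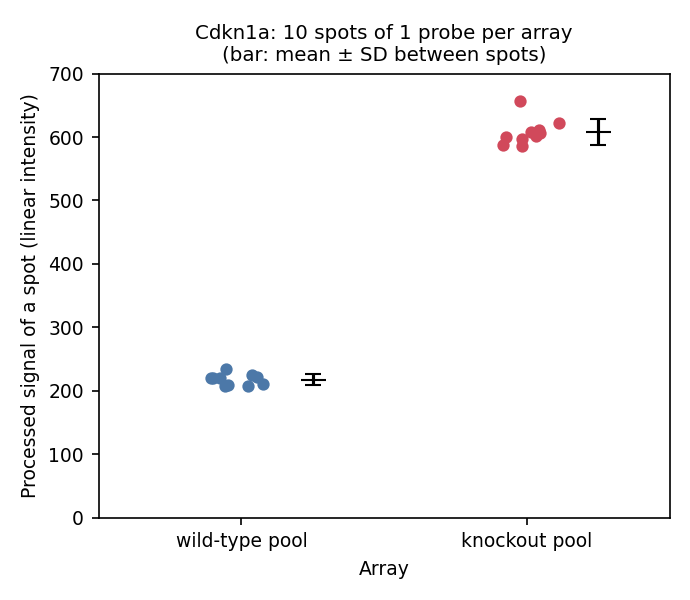
Processed signal (linear intensity) of the 10 Cdkn1a spots on each array, with the mean ± SD between spots. The wild-type spots lie between 207 and 234 and the knockout spots between 586 and 656; spots of 1 array are not replicates of a genotype.

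A second Cdkn1a probe, A_55_P1986282, was designed on transcript NM_001111099, whose position in the array file, chr17:29227986-29228045 in mm9, lies upstream of the first probe. It read 0.832% of the 75th percentile in wild-type liver and 1.60% in knockout liver, and it was not well above background in either pool. No ratio is therefore given for it, and the values of Cdkn1a rest on the first probe. The probes were not assigned to the 2 starts of Cdkn1a. The p53 letters at the upstream start are therefore not tied to the transcript that was measured as higher.

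The other arrest genes did not follow 1 direction. Btg2, an antiproliferative gene that is induced both by p53 and as an immediate-early gene, read 541 in wild-type liver and 1017 in knockout liver on its 1 spot (probe A_52_P31543, chr1:135972094-135972153 in mm9). That was 44.8% of the 75th percentile against 99.8%, 2.23-fold higher in the knockout and rank 139 from the highest. The scanner software's modelled error of those spots was 54.2 and 102. Without scaling the log2 ratio of Btg2 was 0.91 and with spike-in scaling 0.99, both short of 2-fold.

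Gadd45a, which binds PCNA and p38-activating kinases and acts in arrest and repair after DNA damage, differed the other way. Its 1 spot (probe A_51_P296608, chr6:66985376-66985435 in mm9) read 828 with a modelled error of 82.8 in wild-type liver and 268 with 27.2 in knockout liver. It stood at 68.6% of the 75th percentile in wild-type liver and 26.3% in knockout liver, 2.61-fold lower, and ranked 90 from the lowest of all measured genes. The ratio stayed beyond 2-fold in each of the 10 alternative settings, between -1.63 and -1.20 on the log2 scale. Most of them could not have brought it inside that limit. With 1 unmarked spot, other probe filters and summaries return the main value, -1.38, as does the deposited table. Unscaled and spike-in values shift all genes downward. Gadd45b, a paralog that is induced by inflammatory and growth signals rather than chiefly by p53, read 1068 in wild-type liver and 1007 in knockout liver. Its log2 ratio was 0.16, and it was -0.08 without scaling, so no direction is given for it. The third paralog, Gadd45g, had a log2 ratio of 0.56.

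Ccng1, cyclin G, which recruits a phosphatase to Mdm2, read 1179 in wild-type liver and 949.8 in knockout liver. After scaling these were 97.7% and 93.3% of the 75th percentile, a log2 ratio of -0.07. Its paralog Ccng2, a FOXO target, had 0.71. Phlda3, which competes with the kinase Akt for membrane lipids, read 546 and 382, or 45.2% and 37.5% of the 75th percentile, a log2 ratio of -0.27. Phlda1 had -0.53, and Phlda2 was not well above background in either pool.

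Mdm2, the ligase that marks p53 for destruction and whose own transcription p53 drives, was nearly level. It read 5884 in wild-type liver and 4580.3 in knockout liver (probe A_55_P1975475, chr10:117126010-117126069 in mm9), 487% and 449.8% of the 75th percentile, a log2 ratio of -0.12. The ratio ran from -0.36 to -0.06 over the settings. The related inhibitor Mdm4 had 0.10.

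Bax, which opens the mitochondrial outer membrane in apoptosis, read 3653 in wild-type liver and 2257 in knockout liver (probe A_55_P2137406, chr7:52717122-52717181 in mm9). It stood at 303% and 222% of the 75th percentile, with a log2 ratio of -0.45, rank 1726 from the lowest. Trp53inp1, a nuclear protein that promotes p53-dependent apoptosis and autophagy, was higher in the knockout with both of its probes, though within 2-fold. Probe A_51_P175580 read 2765 and 4624, a log2 ratio of 0.99, and probe A_55_P1973906 read 341 and 515, a log2 ratio of 0.84. The gene's value, 0.91, ranked 332 from the highest. Trp53inp1 thus stood just inside the 2-fold limit and Btg2 just outside it.

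Sesn1, a sestrin that restrains mTORC1 and supports antioxidant defence, read 1877 in wild-type liver and 1793 in knockout liver. Scaled, these were 155% and 176% of the 75th percentile, a log2 ratio of 0.18 that was -0.07 without scaling. Its paralogs Sesn2 and Sesn3 had 0.12 and 0.23.

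**Figure D3:**
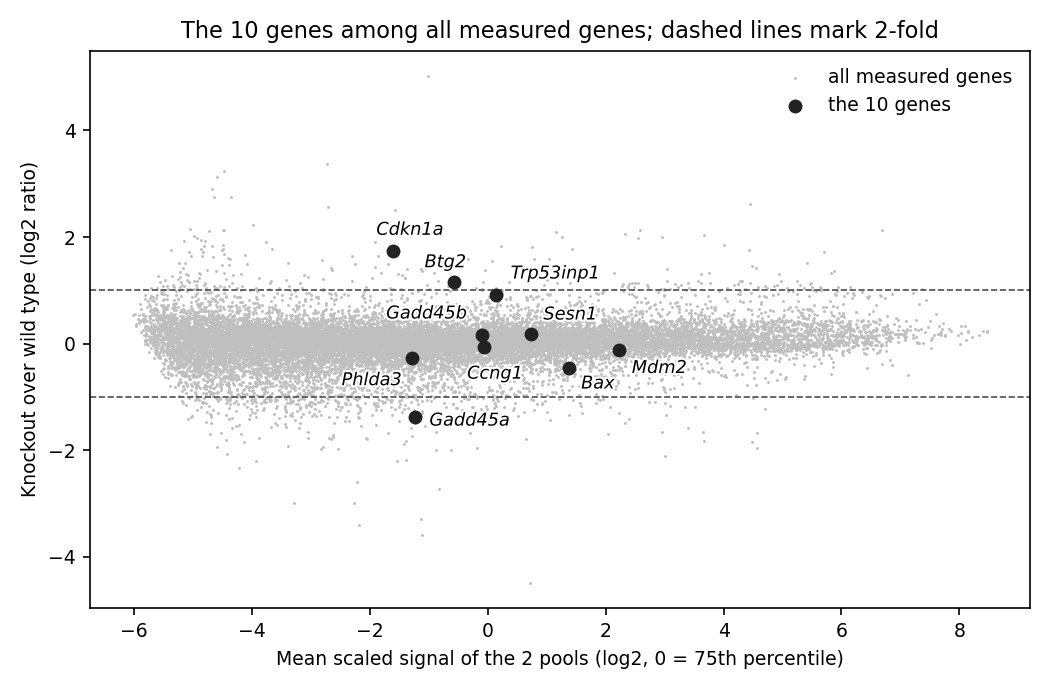
Log2 ratio of knockout over wild type against the mean scaled log2 signal for the 19394 measured genes (grey) and the 10 genes (black). Cdkn1a (1.73) and Btg2 (1.16) lie above the upper 2-fold line, Gadd45a (-1.38) below the lower one, and the others within.

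The ratios of the 10 genes kept their size to different degrees across the settings. Cdkn1a was past 2-fold in all 10 alternatives, between 1.33 and 1.79, the lowest being the value that averages in its dim second probe. Bax, Mdm2, Ccng1 and Phlda3 were below 0 in every setting, and Trp53inp1 above 0 in every setting, from 0.67 to 0.99. Unscaled and spike-in values shift all genes downward, so a negative ratio keeps its sign there by construction. Ccng1 came up to -0.01 and Mdm2 to -0.06 in other settings, and no direction is drawn for either. The median of the 10 genes was -0.20 without scaling, beside -0.21 for all measured genes.

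**Figure D4:**
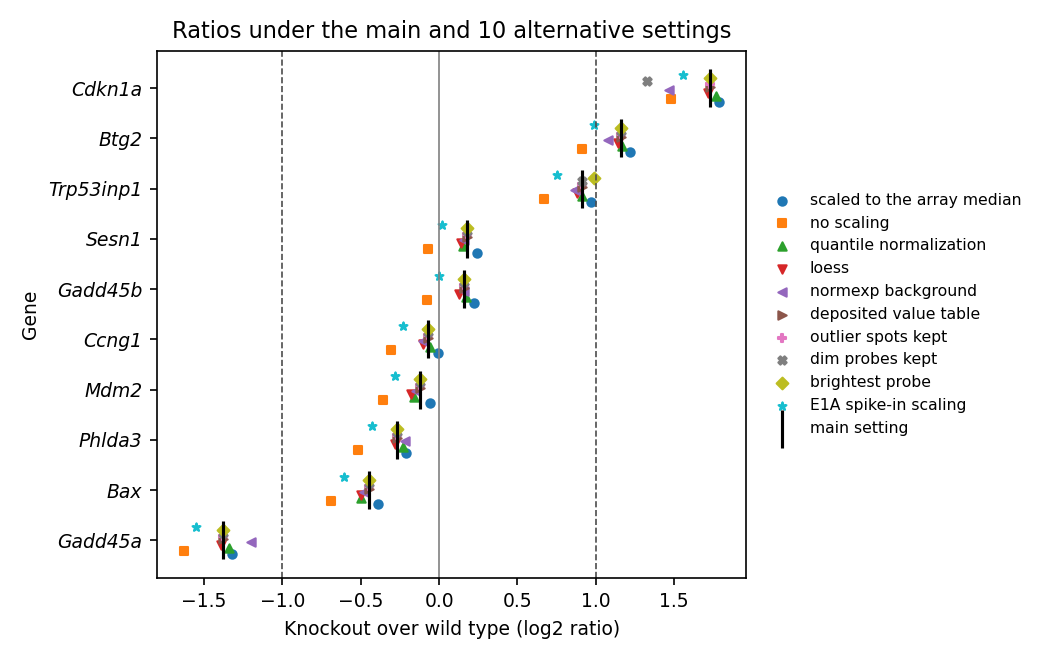
Log2 ratio of each of the 10 genes under the main setting (black bar) and 10 alternative settings (coloured symbols), with dashed lines at 2-fold. Gadd45a stays below -1 and Cdkn1a above 1 throughout, Btg2 drops to 0.91 without scaling, and Sesn1 and Gadd45b cross 0.

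Transcripts of p53 itself and of its regulators were close to level. Trp53 read 126 in wild-type liver and 104 in knockout liver, on a spot that carried an outlier mark on the knockout array and was left out of the counts; with it kept, the log2 ratio was -0.03. Of the 22 measured genes in the list of p53 and its regulators, 0 passed 2-fold upward and 1 downward, beside 1.30% and 1.85% of all measured genes. The list's median was 0.08 (-0.17 without scaling). The lower gene was Chek2, a damage-activated kinase, at -1.03, a value that was -0.24 with the normexp background and also short of 2-fold with median and quantile scaling. Atm and Atr, the kinases that sense DNA damage, had -0.02 and 0.08, the phosphatase Ppm1d, itself a p53 target, -0.27, and the coactivator Crebbp 0.44. Cdkn2a, the locus of the Mdm2 inhibitor ARF, was not well above background in either pool. Protein and phosphorylation, through which p53 is mainly controlled, were not measured.

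Beyond the 10 genes, 3 lists of known p53 targets held 45 further genes, of which 40 were measured. Of these 40, 1 passed 2-fold upward and 0 downward, beside 1.30% and 1.85% of all measured genes. Their median was 0.02 (-0.22 without scaling, beside -0.21 for all measured genes). At 1.5-fold, 4 of them were higher and 2 lower, beside 4.42% and 6.00% of all measured genes. Dram1, well above background in the wild type alone and so not among the 40, was at least 1.77-fold lower. The gene past 2-fold among the 40 was Dcxr, a xylulose reductase, at 1.07. It was 0.82 without scaling and was also short of 2-fold with quantile, loess and spike-in scaling. Ddit4 (2.13), which p53 can also induce, was placed in the FOXO and glucocorticoid list and is not among the 40, so this count depends on the lists. Gls2, the liver glutaminase, had 0.94, Casp6, an executioner caspase, 0.94, and Plk3, a stress-responsive kinase, 0.73. On the other side Gtse1 had -0.80, a value of -0.03 with the normexp background, and Plk2 had -0.62. The 17 measured death targets were all within 2-fold, 6 above 0 and 11 below, with a median of -0.10. Beside Casp6, Ei24 had 0.53 and Perp 0.01, while Bbc3 (PUMA) had -0.11, Pmaip1 (NOXA) -0.39, Fas -0.40, Tnfrsf10b -0.45 and Apaf1 -0.57. With the normexp background Pmaip1 had -0.17, Tnfrsf10b -0.11 and Apaf1 -0.18. The 21 measured targets in repair and metabolism had a median of 0.08, with the damage-recognition genes Xpc at 0.08 and Ddb2 at 0.26, Rrm2b at 0.38 and Gdf15 at -0.30.

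**Figure D5:**
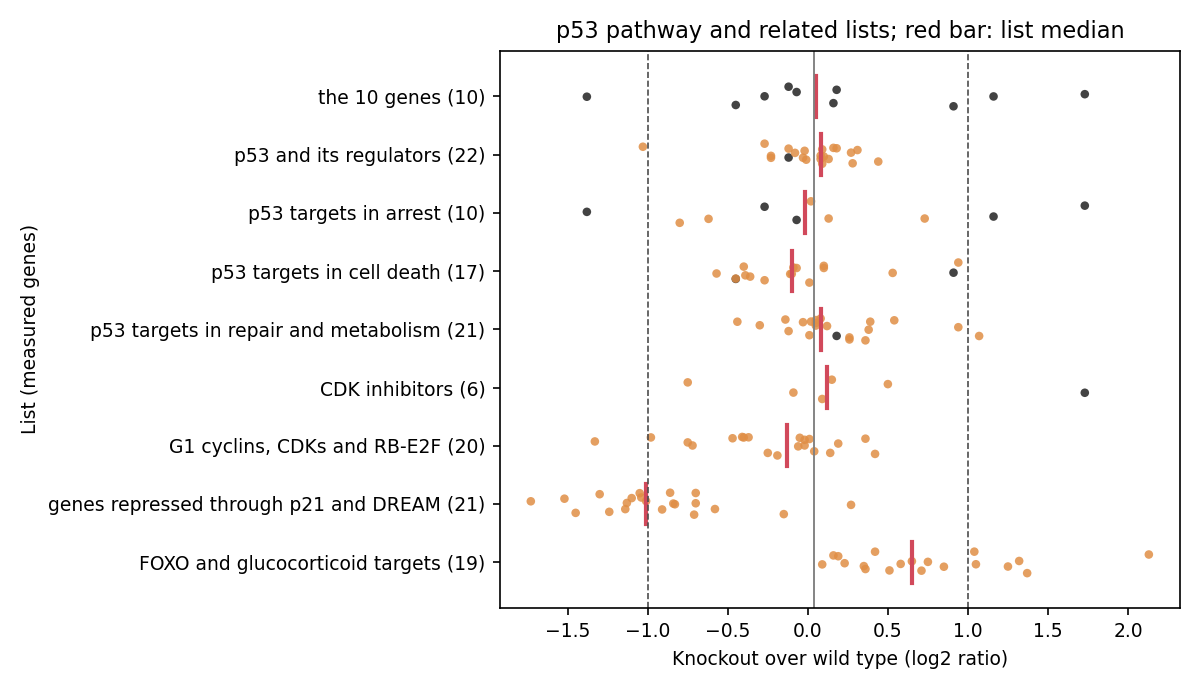
Log2 ratio of knockout over wild type for the measured genes of 9 lists (number measured in brackets), with each list's median in red, the median of all measured genes as a grey line and 2-fold as dashed lines. Black points are the 10 genes and orange points other genes; the 3 target lists have medians from -0.10 to 0.08, the cell cycle list at -1.01 and the FOXO and glucocorticoid list at 0.65.

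Of 6 measured inhibitors of cyclin-dependent kinases, 1 was past 2-fold, Cdkn1a itself, beside 3.16% of all measured genes. Cdkn1b (p27) had 0.09, Cdkn1c (p57) 0.50, Cdkn2b (p15) -0.75, Cdkn2c 0.15 and Cdkn2d -0.09. Cdkn1b was -0.16 without scaling and Cdkn2b -0.19 with the normexp background. The relatives of Btg2 were all within 2-fold, with Tob1 at 0.37, Tob2 at 0.22, Btg1 at 0.15 and Btg3 at -0.37, and Btg4 was not well above background. Btg1 was -0.09 and Tob2 -0.02 without scaling. Trp53inp2, the paralog of Trp53inp1, had -0.22.

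p21 is known to repress a set of cell cycle genes through the DREAM complex. Of 21 measured genes of that set, 11 were lower in the knockout pool by 2-fold or more, beside 1.85% of all measured genes. The other 10 were within 2-fold and 0 were higher. The median of the 21 was -1.01, and it was -0.96 when a gene with a bound was included at it. Among the lowest were the replication helicase genes Mcm5 (-1.73), Mcm2 (-1.45) and Mcm6 (-1.30) and the topoisomerase Top2a (-1.52), and Chek1 (0.27) was the 1 gene above 0. Pcna, a replication gene that was not in this set, had -0.12, so these counts depend on the list. With the normexp background, which damps dim genes, 2 of them remained past 2-fold, Mcm5 and Mcm6, and the median was -0.70. In a separate list of G1 cyclins, their kinases and RB-E2F genes, 1 of 20 was past 2-fold, beside 3.16% of all measured genes. This was E2f2 at -1.33, with E2f8 at -0.98, Ccnd1 at -0.75 and Ccne1 at -0.72 within 2-fold. These genes can be expressed by any dividing cell of the liver, and fewer cells of a type and less RNA per cell cannot be told apart in pooled tissue. The part of the higher Cdkn1a signal in the lower signals of the DREAM set was not tested.

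Of the markers of immune cells, 5 of 12 for macrophages, 3 of 10 for lymphocytes and 2 of 5 for neutrophils were lower in the knockout pool by 2-fold or more, beside 1.85% of all measured genes. All 12 macrophage and Kupffer cell markers had ratios below 0, with a median of -0.92 and a summed scaled signal of 96.0 in wild-type liver and 45.6 in knockout liver. The 5 were Marco (-1.34), Cd5l (-1.22), Adgre1 (-1.16), Timd4 (-1.07) and C1qa (-1.05), of which Timd4 was within 2-fold under normexp (-0.95) and C1qa under median scaling (-0.99). All 10 measured lymphocyte markers were below 0 in the main setting, with a median of -0.90 (-0.41 with the normexp background) and sums of 2.96 and 1.98, led by Cd3d (-1.35), Ms4a1 (-1.34) and Cd3g (-1.02). With the normexp background 0 of them were past 2-fold, at -0.87 for Cd3d, -0.71 for Ms4a1 and -0.43 for Cd3g, and Cd3g also fell short with median and quantile scaling. Cd3e, the brightest of the 10, was level, at -0.06 and at 0.00 with median scaling. The 5 measured neutrophil markers had a median of -0.65, with sums of 2.56 and 1.67 and with S100a8 at -1.75 and S100a9 at -1.65, and that median was -0.02 with the normexp background. Elane, the brightest of the 5, was level at -0.01. Each of the 12 macrophage markers was well above background in both pools, while Cd8a was above it in the wild type alone and Cxcr2 in neither pool. The 9 stellate cell and fibroblast markers had a median of -0.40, with 1 past 2-fold, Acta2, which fell short with the normexp background (-0.83) and with median and quantile scaling, and sums of 56.1 and 53.3, and the 7 endothelial markers had -0.21, with Lyve1 at -0.66 and Cdh5 at -0.44 and sums of 44.5 and 40.4. The 6 cholangiocyte markers had a median of -0.11, 0.09 with the normexp background, and sums of 0.994 and 0.944, with Cftr at 0.34. The 4 measured erythroid markers had 0.02, with Klf1 at 0.86 and sums of 15.7 and 16.4. The 7 measured hepatocyte markers had 0.24 (-0.00 without scaling), with Tat at 1.32 and Cps1 at 0.99 and sums of 958 and 1188. The part of these cell types in the lower signals of Gadd45a and of the cell cycle genes was not tested.

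FOXO factors and the glucocorticoid receptor are inputs that also reach Cdkn1a. Of 19 measured targets, 6 were at least 2-fold higher in the knockout pool, beside 1.30% of all measured genes. The other 13 were within 2-fold, and the median of the 19 was 0.65 (0.41 without scaling). All 19 lay above 0 in the main setting, but without scaling Cdkn1b (-0.16), G6pc (-0.09), Irs2 (-0.06) and Sesn3 (-0.01) lay below it. The list held none of the 10 genes. Gadd45a (-1.38) and Cdkn1a (1.73) are therefore not counted in it, and these counts depend on the list. The 6 were Ddit4 (2.13), an mTORC1 inhibitor that p53 can also induce, Igfbp1 (1.37), Tat (1.32), Zbtb16 (1.25), Cebpd (1.05) and Tsc22d3 (1.04). The last pair fell short of 2-fold without scaling, at 0.80 each, and with quantile, loess and spike-in scaling. Klf15 had 0.85, Fkbp5 0.75 and Ccng2 0.71. Their part in the higher signal of Cdkn1a was not tested.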

How the data were processed

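Liver RNA from wild-type and Pnpla8-/- mice, 1 pool of 5 animals per genotype, was labelled with Cy3 and hybridised to 2 arrays. Per the submitters' processing notes, the authors extracted spot intensity with Agilent Feature Extraction 11.5.1.1, and the deposited scanner files, whose header names build mm9, hold background-subtracted linear intensity. The deposited value table holds the same intensity divided by a constant per array (1207 and 1019), with column medians of 0.0800 and 0.0763. It is linear and not centred per gene. The constants match the 75th percentiles of the 2 arrays (1207 and 1018) closely, so the table repeats the main scaling. The sources used here do not state why those constants were chosen.

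Processed signals were put on the log2 scale relative to the 75th percentile of the array's spots, controls left out. Spots with an outlier mark on the spot or its local background (896 and 913) were left out, which removed 5 listed genes altogether. Spots of a probe were averaged, and the ratio of a gene is the median of its probes that exceeded background clearly on both arrays. Where only 1 array did so, a bound was set against the lowest such signal on the other array. Of 39429 probes, 28330 were named by accession in the RefSeq table of GRCm38.p6, 2204 by symbol and 174 by synonym, and 8721 kept the file's name; that table's gene coordinates were not used. The coordinates of probes are those of the array file, and those of promoters are RefSeq's.

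The 10 genes, 11 pathway and family lists and 8 marker lists were chosen with earlier results of these data known. Named genes were every one of the 10, p53, Pnpla8, paralogs, list members past 2-fold and up to 4 others per list; a few further known targets were named after their values were seen. No test was possible. Alternatives were median, quantile, loess (span 0.3), no or spike-in scaling (8 E1A controls, added after seeing the data), normexp background correction (offset 50), the deposited table, other probe filters and summaries, and thresholds of 1.5-fold and 3-fold. The main scaling and the gene summary were also run on simulated data with planted fold changes, but the alternatives and the motif search were not. Python 3.11.15, pandas 2.3.3, numpy 2.4.6, statsmodels 0.14.6 and limma 3.58.1 in R 4.3.3 were used.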

Additional observations from a re-analysis of the deposited data

How the results depend on the processing

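Of the 10 genes, 9 stayed on their side of 2-fold in each of the 10 alternative settings. Btg2 fell short without scaling (0.91) and with spike-in scaling (0.99), which left 1 gene past 2-fold higher in each. Not all settings could move a gene. Other probe filters and summaries cannot change a gene with 1 probe and no outlier mark, and the deposited table repeats the main scaling. At 3-fold, 1 gene was higher and 0 lower. The median of the 10 was -0.20 without scaling and -0.12 with the spike-ins, beside -0.21 and -0.12 for all measured genes. Over all measured genes, the counts at 2-fold, 253 higher and 359 lower, became 114 and 746 without scaling, 138 and 593 with the spike-ins, 131 and 124 with normexp, 978 and 1215 with dim probes kept, 857 and 1163 at 1.5-fold and 58 and 53 at 3-fold. Median, quantile and loess scaling, the brightest probe and the kept outlier spots moved none of these results by as much. The deposited table gave the main counts, since it repeats the main scaling. The cause of the differences was not tested. No paired analysis was possible because each group holds 1 array, and no replicate could be left out. Ratios of dim genes are least certain, since the scaled signal of negative controls was 0.54 higher on the knockout array on the log2 scale.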

Other observations

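Among relatives of Bax, the BCL2 family genes that govern apoptosis, 1 of 17 was past 2-fold, beside 3.16% of all measured genes. This was Hrk, a BH3-only activator of cell death, at 1.72, a value that was 0.75 with the normexp background. Bnip3 had 0.61, Bok -0.53, Bcl2 -0.20, Mcl1 0.08 and Bcl2l1, which encodes BCL-XL, 0.36, and the family's median was -0.07.

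Btg2 and Gadd45b are also counted among immediate-early genes, which react within minutes to growth signals and to handling of tissue. The 19 measured genes of that list, which held neither of them, had a median of -0.08. Of these 19, 0 were past 2-fold upward and 1 downward, beside 1.30% and 1.85% of all measured genes. The lower gene was Fos at -1.79, and Egr2, above background in the wild type alone, was at least 3.59-fold lower. Zfp36 had 0.71, Jun 0.43, Dusp1 0.41, Egr1 0.20, Myc -0.63 and Ier3 -0.79.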
